A study of Mus musculus with 483 samples.

Results

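The hemoglobin genes and 3 erythroid regulators were followed across single mouse cells. The set holds 10 genes, taken by name from the 46078 genes of the count table. They are the embryonic globins Hba-x, Hbb-y and Hbb-bh1, the adult globins Hba-a1, Hba-a2, Hbb-bt and Hbb-bs, and the regulators Gata1, Klf1 and Epor. Cells sorted as CD31+kit+CD45- came from the aorta-gonad-mesonephros region (AGM) and were labelled hematopoietic stem cells, and each cell was either Ctrl or aDll4-treated. The labels do not say what aDll4 is or how it was given. The sources used here also give no strain, embryo age, animal or culture. Cells could therefore not be grouped by embryo, and each treatment was summed as 1 sample. No test between treatments was made, and no p-value is given. The submitters placed every cell in 1 of 7 ICGS clusters.

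Hemoglobin joins alpha-like and beta-like globin chains around heme. In the mouse, primitive red cells of the yolk sac use embryonic chains (zeta from Hba-x, epsilon-y from Hbb-y, beta-h1 from Hbb-bh1), and definitive red cells of the fetal liver and later marrow use adult chains. Gata1, a zinc finger factor that binds GATA motifs, is needed for red cells and megakaryocytes. Klf1 is a zinc finger factor of red cells that binds CACCC boxes in globin promoters, and Epor is the receptor for erythropoietin. The AGM is where definitive hematopoietic stem cells emerge from endothelium, and primitive red cells from the yolk sac circulate through it.

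Most of these cells were endothelial rather than blood cells. Pecam1, which encodes CD31, was read in 97.1% of cells and Kit in 92.5%, whereas Ptprc, which encodes CD45, was read in 2.48%. These are the genes of the sort gate, and their shares do not separate the cell types. In clusters 6 and 7 they were read in 48, 44 and 3 of 53 cells. Clusters 1, 2 and 3 (97, 73 and 31 Ctrl cells and 86, 72 and 36 treated cells, 395 in all) carried 352 CPM (counts per 1000000 gene-assigned reads) of the endothelial cadherin Cdh5, against 8.83 CPM in cluster 6 and 0.537 CPM in cluster 7. Clusters 4 and 5 (22 and 13 cells) were mesenchymal, and clusters 6 and 7 (33 and 20 cells) were hematopoietic. Gene-assigned reads per cell ran from 123097 to 2870618. Clusters 6 and 7 held 5.86% and 3.35% of Ctrl cells and 7.79% and 4.92% of treated cells. In sums over all cells, more cells of a type and more RNA per cell both raise a level. Ratios within clusters and shares of cells with a read are therefore given as well. CPM values below are reads summed over a group of cells and scaled to that group's summed gene-assigned total, with exact Poisson 95% intervals in brackets. These intervals, and the Clopper-Pearson 95% intervals of shares, cover counting error only.

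Certain cells and batches stand apart. Treated cell 31 (Treat_031 in the labels), placed in the endothelial cluster 2, held 36420 of the 75962 globin reads in the table. Results that rest on it are therefore given with and without it. Library numbers fall into 2 blocks with cells of both treatments. At least 10 reads of Y-linked genes were found in 77 Ctrl cells of block 1, and at least 10 of Xist in 85. Among treated cells of that block most had such Y-linked reads and 0 had such Xist reads. Among treated cells of block 2, 0 of 66 had such Y-linked reads and 61 such Xist reads, while 29 and 25 of its 63 Ctrl cells did. Treatment and embryo therefore cannot be told apart within a block.

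The start of each coding region shows how far reads can tell the globin genes apart. The first 90 coding bases (GENCODE M21, mm10) of the beta-like genes, on chromosome 7 and the minus strand, are printed 5′ to 3′ with capitals at bases that differ from Hbb-bs. They lie at chr7:103853063-103853152 for Hbb-y, chr7:103843021-103843110 for Hbb-bh1 and chr7:103827786-103827875 for Hbb-bs.
Hbb-y: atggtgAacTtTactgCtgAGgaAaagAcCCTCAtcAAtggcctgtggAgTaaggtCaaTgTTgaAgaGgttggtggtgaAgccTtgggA
Hbb-bh1: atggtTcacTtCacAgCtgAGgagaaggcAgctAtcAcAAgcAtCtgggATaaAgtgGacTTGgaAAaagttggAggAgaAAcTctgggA
Hbb-bs: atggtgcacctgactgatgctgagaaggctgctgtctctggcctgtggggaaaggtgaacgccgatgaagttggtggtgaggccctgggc
The alpha-like genes lie on chromosome 11, on the plus strand, and capitals mark bases that differ from Hba-a1. Hba-x is shown from chr11:32276664-32276753 and Hba-a1 from chr11:32283707-32283796.
Hba-x: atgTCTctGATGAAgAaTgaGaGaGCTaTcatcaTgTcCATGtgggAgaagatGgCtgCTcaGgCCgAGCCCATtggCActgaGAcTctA
Hba-a1: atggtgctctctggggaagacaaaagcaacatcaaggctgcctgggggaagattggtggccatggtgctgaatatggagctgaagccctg

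In these 90 bases Hbb-y and Hbb-bh1 differ from Hbb-bs at 26 and 29 positions, and Hba-x differs from Hba-a1 at 44. The stretch from Hbb-bt is identical to that of Hbb-bs, and the stretch from Hba-a2 to that of Hba-a1. Over the whole coding region Hbb-bt and Hbb-bs differ at 1 of 444 bases, and Hba-a1 and Hba-a2 at 1 of 429. Of the 50-base stretches of the Hbb-bs transcript, 65.8% also occur in Hbb-bt, and of those of Hba-a2, 86.9% also occur in Hba-a1. The embryonic genes share 0% of such stretches with the other globins. Reads of an adult pair can therefore be split or dropped in counting, so that the adult levels below are uncertain, while the embryonic genes are not touched by this. The sources used here do not say how reads with several matches were counted.

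The promoters were searched for motifs of these regulators. The 250 bases before the RefSeq gene start (GRCm38.p6) are printed for Hbb-y and Hba-x, embryonic genes that were often read in the same endothelial cells, and for Hbb-bs, an adult gene of cluster 6. Capitals mark the CCAAT box, the CACCC box and the GATA motif, searched on either strand. The GATA motif was spelled AGATAA, or with its first letter replaced by T. The regions are chr7:103853208-103853457 (minus strand), chr11:32276350-32276599 (plus strand) and chr7:103827929-103828178 (minus strand).
Hbb-y: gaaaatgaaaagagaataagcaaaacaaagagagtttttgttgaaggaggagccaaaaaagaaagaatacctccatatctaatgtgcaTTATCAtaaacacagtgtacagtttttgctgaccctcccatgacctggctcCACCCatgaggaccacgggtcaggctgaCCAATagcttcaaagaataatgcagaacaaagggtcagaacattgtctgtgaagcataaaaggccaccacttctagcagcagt
Hba-x: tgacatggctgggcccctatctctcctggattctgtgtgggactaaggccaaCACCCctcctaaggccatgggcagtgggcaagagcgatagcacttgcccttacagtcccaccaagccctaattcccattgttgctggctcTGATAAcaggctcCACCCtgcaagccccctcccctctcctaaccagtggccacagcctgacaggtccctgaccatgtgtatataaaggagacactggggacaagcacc
Hbb-bs: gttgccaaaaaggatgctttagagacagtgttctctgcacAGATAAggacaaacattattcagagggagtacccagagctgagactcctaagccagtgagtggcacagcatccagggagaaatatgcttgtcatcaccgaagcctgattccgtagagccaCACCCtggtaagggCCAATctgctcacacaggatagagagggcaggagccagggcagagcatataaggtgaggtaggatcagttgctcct
Each of these promoters holds a GATA motif, and so do those of Hba-a1, Hba-a2, Klf1 and Epor. A CACCC match is present in each of the 9 promoters found, and a CCAAT match in 6 of them. Among 32851 mouse promoters of the same length, 16.6% held a GATA motif, 52.01% a CACCC match and 33.8% a CCAAT match. A match describes these letters and is no evidence that a factor bound there. The motifs do not overlap one another in these windows.

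Embryonic globins made up most globin reads in every cluster with more than 100 of them. Per kilobase of exon, Hbb-y and Hbb-bh1 together supplied 99.5% of beta-like reads in clusters 1 to 3, 90.5% in cluster 6 and 83.5% in cluster 7. The endothelial and the hematopoietic clusters differed in which embryonic gene this was. In clusters 1 to 3, Hbb-y supplied 77.1% of beta-like reads and Hbb-bh1 22.3%, or 91.5% and 7.82% without treated cell 31. In cluster 6 the order was the other way, with 4.25% Hbb-y, 86.3% Hbb-bh1, 5.78% Hbb-bt and 3.69% Hbb-bs. Cluster 7 had 4.10% Hbb-y and 79.4% Hbb-bh1. The clusters were built by the submitters on these same cells, so these shares are descriptions and no test of a difference between clusters.

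**Figure D1:**
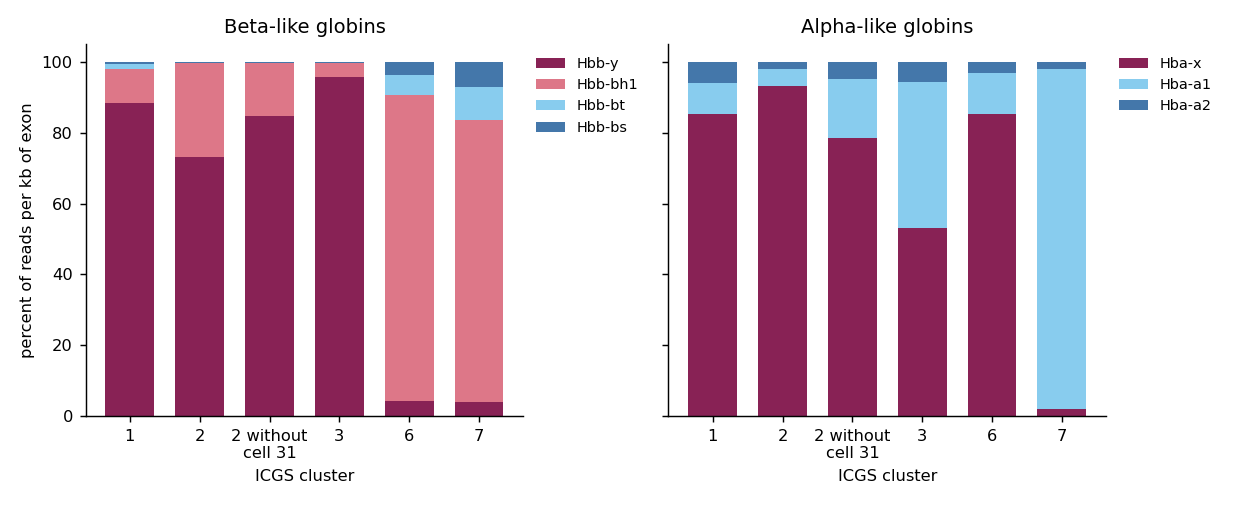
Share of each beta-like gene (left) and alpha-like gene (right) in the reads per kilobase of exon, in percent, by ICGS cluster with both treatments summed. Clusters 4 and 5, with 65 and 9 globin reads, are left out, and cluster 2 is shown with and without treated cell 31. Hbb-y fills most of the bars of clusters 1 to 3, and Hbb-bh1 those of clusters 6 and 7.

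Alpha-like reads followed another pattern. Hba-x, the zeta chain gene, supplied 92.1% of alpha-like reads per kilobase in clusters 1 to 3, 85.1% in cluster 6 and 2.06% in cluster 7. These shares rest on a few cells. Without treated cell 31 the share in clusters 1 to 3 was 71.7%, and Treat_218 held 3698 of the 4012 Hba-x reads of cluster 6. In cluster 7 the alpha-like reads were almost all of Hba-a1 (96.01% per kilobase), and 1 treated cell, Treat_157, held 98.3% of its reads. Alpha-like genes supplied 12.3% of all globin reads per kilobase in cluster 6, 3.95% in cluster 7 and 7.66% in clusters 1 to 3 without treated cell 31.

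Hbb-bh1 was at 565 CPM (557 to 574) in cluster 6 and 89.8 CPM (85.8 to 94.03) in cluster 7. It stood at 2.90 CPM (2.61 to 3.22) in cluster 2 without treated cell 31, or 55.04 CPM with it, and at 3.67 CPM (3.17 to 4.24) in cluster 3. Clusters 4 and 1 followed at 0.928 CPM (0.559 to 1.45) and 0.697 CPM (0.579 to 0.832), whose intervals overlap, and cluster 5 at 0.195 CPM. Those of clusters 2 and 3 overlap narrowly. Reads were in 21 of the 33 cells of cluster 6, with a maximum of 6105, so the level came from part of the cluster. In clusters 1 to 3, 85 of 395 cells had a read and the median among these was 1.

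Hbb-y, the epsilon-y gene, had another order. It was at 95.4 CPM (92.7 to 98.1) in cluster 3 and 28.8 CPM (26.98 to 30.6) in cluster 6. Cluster 2 held 16.95 CPM (16.2 to 17.7) without treated cell 31, or 157.3 CPM and the highest level with it. Cluster 3 rested on few cells too, as its 3 highest, all treated, held 3632 of its 4830 reads. With the 3 highest cells of each cluster left out, a choice made after seeing the data, clusters 3, 2, 1 and 6 were at 25.2, 10.1, 3.52 and 0.43 CPM. With every cell counted, the next levels were 6.57 CPM (6.20 to 6.96) in cluster 1, 4.79 CPM (3.89 to 5.83) in cluster 7, 1.90 CPM in cluster 4 and 0.130 CPM in cluster 5. In cluster 6, Treat_229 alone held 789 of 968 reads. That cell had 0 reads of Hbb-bh1, Gata1 and Klf1 and 84 of Epor.

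Each adult gene had its highest level in cluster 6. Hbb-bt was at 43.4 CPM (41.3 to 45.7) in cluster 6, 12.2 CPM (10.7 to 13.8) in cluster 7 and 0.145 CPM (0.108 to 0.190) in clusters 1 to 3. Hbb-bs was at 30.3, 10.1 and 0.425 CPM in the same order. Without treated cell 31 the levels in clusters 1 to 3 were 0.0854 CPM for Hbb-bt and 0.120 CPM for Hbb-bs. Reads of Hbb-bt were found in 27 of 33 cells of cluster 6, more than for any other globin there, and the median among them was 14 reads. Hba-a1 was at 14.4 CPM in cluster 6, 5.91 CPM in cluster 7 and 1.87 CPM in clusters 1 to 3, and Hba-a2 at 3.03, 0.0977 and 0.598 CPM. In clusters 1 to 3, treated cell 31 held 443 of the 659 Hba-a1 reads and 170 of those of Hba-a2, and without it the levels were 0.615 and 0.117 CPM.

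**Figure D2:**
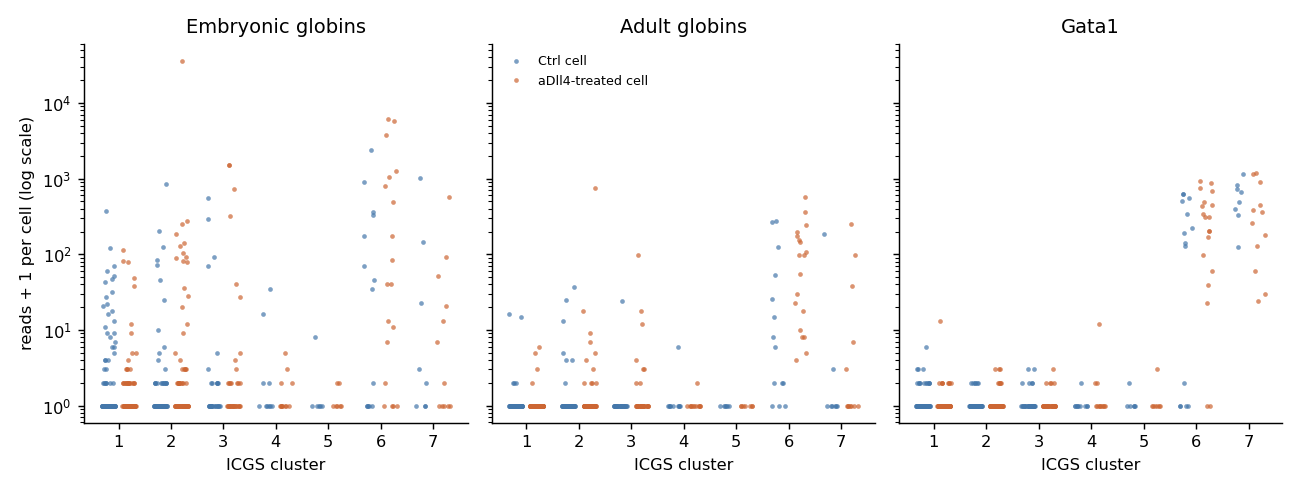
Reads per cell, plus 1, on a log scale, for the summed embryonic globins (left), summed adult globins (middle) and Gata1 (right) by ICGS cluster, each point 1 cell and colour the treatment. Gata1 reads above 12 per cell lie in clusters 6 and 7, whereas high embryonic globin reads also occur in clusters 1 to 3, up to 35678 in treated cell 31.

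Single cells mostly held one of Hbb-y and Hbb-bh1 in excess of the other. There were 90 cells with 10 or more globin reads, of which 56 lay in clusters 1 to 3, 2 in clusters 4 and 5, 24 in cluster 6 and 8 in cluster 7. In clusters 1 to 3, 54 of the 56 had reads of either gene, and in 47 of these Hbb-y supplied over 50% of the pair's reads. In cluster 6, 22 had reads of either gene and Hbb-y was the larger in 2. In cluster 7 it was the larger in 3 of 8. Of the 54 endothelial cells, 36 had over 90% Hbb-y and 5 had under 10%. Ctrl and treated endothelial cells showed the same order, with Hbb-y the larger in 22 of 27 Ctrl and 25 of 27 treated cells.

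**Figure D3:**
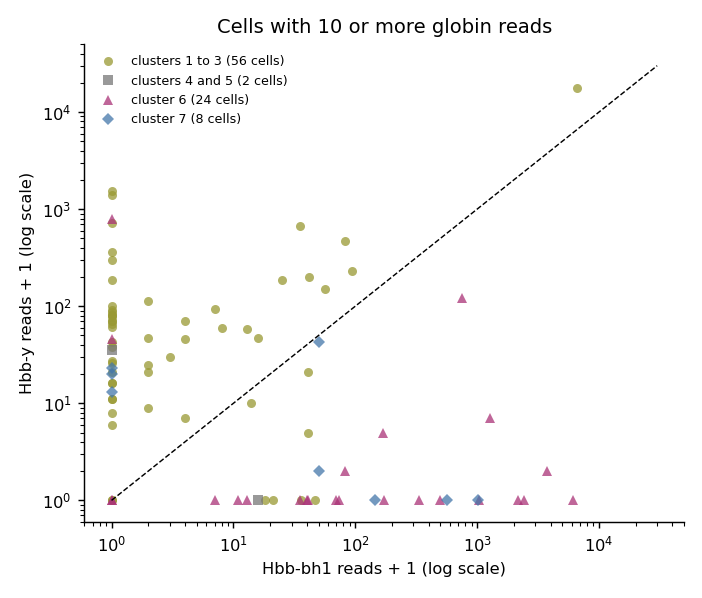
Hbb-y reads against Hbb-bh1 reads per cell, each plus 1 on a log scale, in the 90 cells with 10 or more globin reads; the dashed line marks equal reads. Endothelial cells (circles) lie mostly above the line and cells of cluster 6 (triangles) mostly below it, and treated cell 31 is the circle at the upper right.

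Embryonic alpha-like and beta-like reads were found in the same endothelial cells. Of the 47 cells of clusters 1 to 3 with an Hba-x read, 33 also had an Hbb-y read and 24 an Hbb-bh1 read. Across the 395 cells Spearman's rho between CPM values was 0.45 for Hba-x with Hbb-y, 0.30 with Hbb-bh1 and 0.056 with Gata1. Cells share depth and library preparation, so these are descriptions. In the 53 cells of clusters 6 and 7 rho was 0.55 between Hbb-bh1 and Hbb-bt, 0.60 between Hbb-bh1 and Hbb-bs, 0.51 between Hbb-bh1 and Klf1, 0.021 between Hbb-bh1 and Hbb-y and 0.062 between Hbb-bh1 and Gata1.

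The regulators were read mostly in clusters 6 and 7. Gata1 was at 288 CPM (283 to 294) in cluster 6 and 481 CPM (471 to 490.4) in cluster 7, with reads in 27 of 33 and 20 of 20 cells. Klf1 differed more between them, at 150.8 CPM (146.7 to 154.998) and 19.4 CPM (17.5 to 21.4), with reads in 23 and 4 cells. Epor was at 101.8 CPM (98.4 to 105.3) and 79.1 CPM (75.3 to 83.03), in 26 and 17 cells. In cluster 7 all 349 treated Klf1 reads lay in 1 cell, and the Ctrl cells held 48. In clusters 1 to 3 Gata1 was at 0.204 CPM, Klf1 at 0.235 CPM, of which 68 of 83 reads lay in 1 cell, and Epor at 3.54 CPM. Epor had 10 or more reads in 20 of the 395 endothelial cells, against 1 for Gata1 and 1 for Klf1.

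Globin-bearing cells of the endothelial clusters had few reads of the regulators. Of the 56 cells of clusters 1 to 3 with 10 or more globin reads, 44 had 0 reads of both Gata1 and Klf1, 1 had 10 or more Gata1 reads and 0 had 10 or more Klf1 reads. In cluster 6, 23 of 24 such cells had 10 or more Gata1 reads and 21 had 10 or more Klf1 reads. In cluster 7, all 8 had 10 or more Gata1 reads and 2 had 10 or more Klf1 reads.

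A globin read was found in 40% of the 395 endothelial cells (35.1 to 45.02%), at a median depth of 849476 reads. It was found in 12 of 35 mesenchymal cells, 34.3% (19.1 to 52.2%), at a median depth of 1005490, and in 44 of 53 hematopoietic cells, 83.02% (70.2 to 91.9%), at 1052305. The intervals of the mesenchymal and endothelial shares overlap. With every cell thinned to 120000 reads, the shares were 22.03% (18.03 to 26.4%), 14.3% (4.81 to 30.3%) and 66.04% (51.7 to 78.5%). Most endothelial cells with a globin read had fewer than 10, and 56 had 10 or more.

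Genes of other cell types gave the same kind of low share in endothelial cells. Pf4, a platelet protein with 6875 CPM in cluster 7, was read in 38.7% of cells of clusters 1 to 3 and at 10 or more reads in 3.04%. Acta2, smooth muscle actin, was read in 67.3% (4.05% at 10 or more), Col3a1, a fibroblast collagen, in 36.2% (7.09%), and Rac2, a GTPase of blood cells, in 13.4% (0.506%). Gata1 was read in 12.2% and at 10 or more in 0.253%. Hbb-bh1 was read in 21.5% (17.6 to 25.9%) and at 10 or more in 4.05%, in the range of these genes. Hbb-y was read in 23.3% (19.2 to 27.8%) and at 10 or more in 11.1%. Only its share at 10 or more reads was above that of each of these genes, and its share with any read was below those of Acta2, Pf4 and Col3a1. Hba-x was read in 11.9% and at 10 or more in 3.54%, and the 4 adult genes in 1.77 to 5.06%. Whether these low reads came from other wells, from free RNA or from the cells themselves was not tested.

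The genes differed in where their reads lay. For Hbb-bh1, 25.7% of all reads lay in clusters 1 to 3, or 3.11% without treated cell 31, and for Gata1, Pf4 and Rac2 it was 0.367%, 0.422% and 0.500%. For the mesenchymal genes Acta2, Tagln, Col1a1, Col1a2 and Col3a1 it was 14.6%, 20.9%, 2.52%, 5.89% and 8.59%. For Hbb-y the share in clusters 1 to 3 was 95.9%, or 87.97% without treated cell 31, and the cell of clusters 6 and 7 with the most Hbb-y held 789 reads. The library numbers were also cut into 6 runs of 96, each with cells of both treatments, and the cell with the most reads of a gene in a run was set aside. Hba-x was then read in 12.7% of the other endothelial cells of run 1, which holds treated cell 31 with its 11503 reads. It was read in 11.7, 19.7, 6.67, 4.08 and 8.89% in runs 2 to 6, where the highest cell held from 58 (run 2) to 3698 reads (run 6). The run with the highest share, run 3, had a highest cell of 288 reads.

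For Hbb-y the corresponding shares were 25.3, 29.5, 23.1, 13.3, 22.4 and 20% in runs 1 to 6. The highest cell held 17629 reads in run 1 and 1531, 1382 and 789 in runs 4 to 6, and fewer in runs 2 and 3. Cells with 10 or more Hbb-y reads were found in each run, in 5.33 to 15.4% of these endothelial cells. Hbb-bh1 differed by block. It was read in 25.3, 37.2, 21.2 and 16% in the 4 runs of block 1 and in 8% and 8.89% in the 2 runs of block 2. The highest cell held 6546 and 6105 reads in runs 1 and 2, 40 in run 4, and 2412 and 2152 in runs 5 and 6. Most of this difference lay in cells with 1 to 9 reads, which were 13.3 to 33.3% of endothelial cells in the runs of block 1 and 2% to 6.67% in those of block 2.

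The comparison of treated with Ctrl cells asked how the globin genes and their regulators differed. Ctrl cells held 10096 globin reads, 45.1 CPM (44.2 to 45.97), and treated cells 65866, 301 CPM (299 to 304). The log2 ratio of treated over Ctrl, with 1 CPM added to both, was 2.71. It was 2.80 for the embryonic globins (40.2 and 285 CPM) and 1.57 for the adult globins (4.93 and 16.6 CPM). Of the 10 members, 6 had a ratio of at least 1 all 10 were above 0 and 0 were at -1 or below. Of 15204 genes read in at least 5% of cells (the measured genes), 1.16% had a ratio of 1 or more, 0.888% had -1 or less, and the median was 0.012. Hba-a2, in 22 cells, did not pass that filter, and the other 9 members did.

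Among the embryonic genes, Hba-x had 643 reads in Ctrl (2.87 CPM) and 15660 in treated cells (71.6 CPM), a log2 ratio of 4.23. Hbb-y had 2944 (13.1 CPM) and 23889 (109.3 CPM), a ratio of 2.96. Hbb-bh1 had 24.1 and 103.8 CPM, a ratio of 2.06. The share of cells with a read differed far less, at 9.62% and 14.3% for Hba-x, 21.8% and 25% for Hbb-y and 23.4% and 25.4% for Hbb-bh1. The adult genes Hba-a1 (0.875 and 4.89 CPM), Hbb-bt (2.01 and 6.03 CPM) and Hba-a2 (0.125 and 1.31 CPM) had ratios of 1.65, 1.22 and 1.04, and Hbb-bs (1.92 and 4.33 CPM) a ratio of 0.87.

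The regulators had smaller ratios. Gata1 stood at 36.2 CPM in Ctrl against 52.8 CPM in treated cells (0.53), Klf1 at 10.3 and 14.8 CPM (0.48) and Epor at 13.04 and 15.8 CPM (0.26). Within clusters 6 and 7 together, where these genes are mostly read, the ratios were -0.15, -0.13 and -0.039. They were 0.14, -0.39 and 0.092 in cluster 6 and -0.33, 2.23 and -0.35 in cluster 7. Over the cells of both clusters, the mean of log2(CPM + 1) was higher in treated cells, by 0.64, 0.55 and 0.66. With both treatments weighted to the cluster shares of all cells, a choice made after seeing the data, the ratio of summed globins was 2.47 and that of adult globins 1.08.

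**Figure D4:**
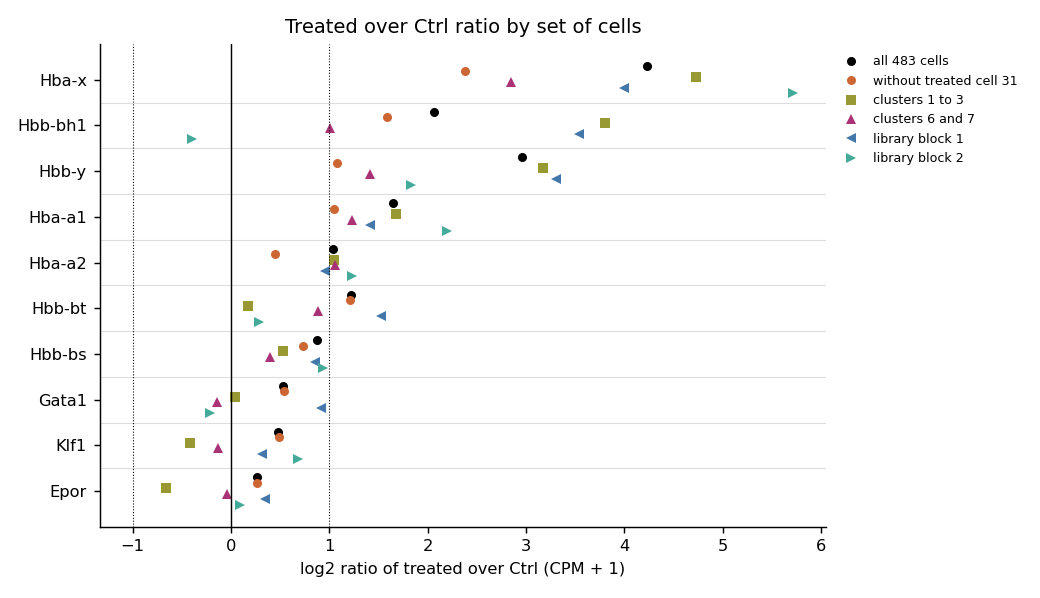
Log2 ratio of treated over Ctrl (CPM + 1) of the 10 members in 6 sets of cells; the solid line marks 0 and the dotted lines a ratio of 1 either way. The ratios of the embryonic genes spread over several log2 units between sets, and those of Gata1, Klf1 and Epor lie near 0 in clusters 6 and 7 together.

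Few cells carried the difference in globins. In treated cells 1 cell held over 50% of the globin reads and 9 held 90%, whereas in Ctrl it took 4 and 18. The counterpart for Gata1 was 6 and 18 treated cells and 6 and 13 Ctrl cells. Treated cell 31 held 55.3% of treated globin reads, with 73.8% of those of Hbb-y, 73.5% of Hba-x, 59.2% of Hba-a2, 41.5% of Hba-a1, 28.8% of Hbb-bh1, 11.4% of Hbb-bs and 1.59% of Hbb-bt. Treat_218, Treat_114 and Treat_089, all of cluster 6, followed with 6419, 6350 and 3869 globin reads. In Ctrl the highest were Ctrl_178 of cluster 6 with 2437 and Ctrl_180 of cluster 7 with 1209.

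**Figure D5:**
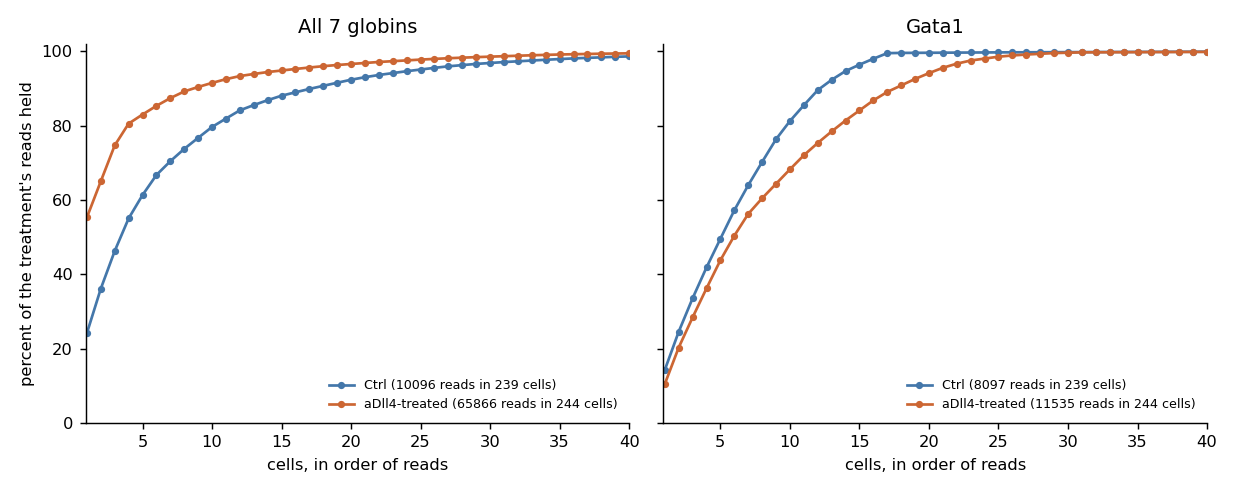
Percent of a treatment's reads held by its highest cells, added in order of reads, for the 7 globins (left) and Gata1 (right). The treated globin curve starts at 55.3% with 1 cell and the Ctrl curve at 24.1%, while the Gata1 curves start at 10.4% and 14.2%.

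Without treated cell 31 the ratio was 1.57 for all globins, 1.58 for the embryonic and 1.26 for the adult genes. It was 2.38 for Hba-x, 1.58 for Hbb-bh1, 1.07 for Hbb-y, 1.05 for Hba-a1, 0.45 for Hba-a2 and 1.21 for Hbb-bt. Then 5 of the 10 members had a ratio of at least 1, with 1.17% of measured genes, and 0 had -1 or less, with 0.875%. When the cells with the most reads of a gene were left out of both treatments, Hba-x was at 2.96 without 1 cell each, 0.69 without 2 and 0.16 without 10. Hbb-y was at 1.41, 1.31 and 0.60, and Hbb-bh1 at 2.38, 2.26 and 0.48. The sum of all globins, with its own highest cells left out, was at 1.94, 1.83 and 1.38, and at 1.35 without 20.

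In clusters 1 to 3 Ctrl cells held 19.04 CPM of globins and treated cells 258 CPM (log2 ratio 3.69). Without treated cell 31 the treated level was 38.4 CPM and the ratio 0.98. Of the 10 members 5 had a ratio of at least 1 with that cell (1.17% of measured genes) and 1 without it (1.15%). None (0) had -1 or less either way, against 1.55% of measured genes both times. The member left was Hbb-y, with 14.5 CPM in Ctrl against 32.8 CPM in treated cells (1.12), while Hbb-bh1 was at 2.03 and 1.77 CPM (-0.13). This Hbb-y ratio rested on few cells. Without treated cell 31 the treated cells held 5384 Hbb-y reads, of which 3632 lay in 3 cells of cluster 3. Ctrl and treated each had 28 endothelial cells with 10 or more globin reads.

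The 3 endothelial clusters gave ratios on both sides of 0. In cluster 1 the globins stood at 10.6 CPM in Ctrl against 5.19 CPM in treated cells (-0.90), with 16 of 97 and 6 of 86 cells at 10 or more globin reads. In cluster 2 without treated cell 31 the ratio was 0.18, with 8 of 73 Ctrl cells and 15 of all 72 treated cells at that depth. In cluster 3 they were at 38.7 and 180.7 CPM (2.19), with 4 of 31 and 7 of 36 cells. Treat_205, Treat_136 and Treat_231 of cluster 3 held 1615, 1534 and 720 globin reads, of which 1382, 1531 and 719 were of Hbb-y.

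In cluster 6 Ctrl cells held 413 CPM of globins (402 to 425) and treated cells 1031 CPM (1017 to 1045), for a ratio of 1.32. Hbb-bh1 was at 312 and 712 CPM (1.19), with reads in 7 of 14 and 14 of 19 cells, and Hbb-bt at 26.8 and 53.1 CPM (0.96), in 9 and 18 cells. There 4 of the 10 members had a ratio of at least 1, and so did 13.5% of measured genes, with 14 Ctrl and 19 treated cells behind the values. None (0) had -1 or less, against 9% of measured genes. Of those at 1 or more, Hba-x and Hba-a2 rested on Treat_218, with 3698 of 3703 and 76 of 86 treated reads. Most treated Hbb-y reads of cluster 6 lay in Treat_229. In cluster 7 Hbb-bh1 was lower in treated cells, at 57.1 CPM against 134.3 CPM (-1.22), and Ctrl_180 held 1022 of the 1166 Ctrl reads. Over clusters 6 and 7 together 5 members reached 1, against 9.73% of measured genes, and 0 had -1 or less, against 6.35%.

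The library blocks and runs gave different values. In single runs the ratio of all globins was 5.54, 2.88, 0.86, 0.26, -0.82 and 4.84 in runs 1 to 6. The embryonic sum was below 0 in runs 4 (-0.17) and 5 (-0.85), and the adult sum in run 5 (-0.29). The ratio of all globins was 3.45 in block 1, which holds treated cell 31, and 1.12 in block 2. Hbb-bh1 had 10.8 CPM in Ctrl against 135.7 CPM in treated cells of block 1 (3.54), and 54.4 against 40.96 CPM in block 2 (-0.40). Hba-x stood at 4.13 and 80.98 CPM (4.00) in block 1. In block 2 it had 2 reads in Ctrl cells and 53.2 CPM in treated cells (ratio 5.72, counting interval 5.57 to 5.80), where Treat_218 held 3698 of 3907 reads. Gata1 was at 30.3 and 57.96 CPM in block 1 (0.91) and at 49.4 and 42.5 CPM in block 2 (-0.21). In block 1, 5 of 10 members reached a ratio of 1 against 1.64% of measured genes, and in block 2, 4 of 10 against 5.87%. At -1 or less there were 0 members in each block, against 1.55% and 5.42% of measured genes.

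Treated cell 31 had an unusual set of transcripts. It had 1211477 reads and 9133 genes with a read, while cluster 2 had medians of 835071 and 7370. Its globin reads were 17629 of Hbb-y, 11503 of Hba-x, 6546 of Hbb-bh1, 443 of Hba-a1, 170 of Hba-a2 and 21 of Hbb-bt. Hbb-bs was at 89.1 CPM, and the 7 genes together at 30062.5 CPM. Other red cell transcripts were there too. It had 71 reads of Slc4a1, the band 3 anion exchanger of the red cell membrane, of which the highest other cell had 1. It had 76 reads of Alas2, the erythroid enzyme that starts heme synthesis. Hemgn (hemogen) was at 122.99 CPM. These genes were chosen after their values were seen.

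The same cell had 2 reads of Gata1 and 0 of Klf1, Tfrc (transferrin receptor), Rhag and Ermap, and 13 of Epor. Endothelial transcripts were present, with Cdh5 at 168.4 CPM, against 353 CPM in the other cells of clusters 1 to 3, and Emcn at 1895 CPM, against 1380 CPM. It also had 751 reads of Kdr, the main VEGF receptor. In cluster 2, 28 cells had more reads in all. Doublets were not called, and whether this well held more than 1 cell was not tested.

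The rest of the red cell program was examined by lists of genes. Over all measured genes, 52.2% had a ratio of treated over Ctrl above 0 and 1.16% reached 1, and the list counts below are to be read against these shares. Of the 12 other erythroid transcription factors, 8 had a ratio above 0 and 0 reached 1, with a median of 0.10. Gfi1b, a repressor needed for red cells and megakaryocytes, was at 236.3 CPM in cluster 6, 538 CPM in cluster 7 and 0.150 CPM in clusters 1 to 3, and its ratio of treated over Ctrl was 0.15. Nfe2, a factor of red cells and platelets, was at 222.9, 442.5 and 4.75 CPM (0.63). Within clusters 6 and 7 the ratios of Gfi1b and Nfe2 were -0.53 and 0.18. They were 0.84 and 1.16 in block 1 and -1.15 and -0.080 in block 2. Lmo2 and Lyl1, partners in the Gata1 and Tal1 complex, were also read in endothelial cells, at 168.7 and 41.96 CPM, and had ratios of 0.048 and -0.059.

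Summed over all cells, globin switching regulators differed little between treatments, with 4 of 7 above 0, 0 past 1 and a median of 0.071. Within clusters 6 and 7, 5 of 7 were above 0 and 2 reached 1 (9.73% of measured genes), with a median of 0.053. The ratios that follow are over all cells. The RNA-binding proteins Igf2bp1, Igf2bp3 and Lin28b had ratios of 0.071, -0.10 and -0.20. They were at 243.1, 77.5 and 54.3 CPM in clusters 1 to 3, 208.5, 57.4 and 58.3 CPM in cluster 6, and 109.1, 85.7 and 41.96 CPM in cluster 7. Bcl11a, the repressor of embryonic globins, was named after its values were seen. It was at 76.1 CPM in cluster 6, 8.40 CPM in cluster 7 and 9.05 CPM in clusters 1 to 3, with a ratio of 0.25.

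Heme synthesis genes had a median ratio of 0.079, with 6 of 9 above 0 and 0 past 1. Cpox and Alad, enzymes of the pathway, were at 398 and 348 CPM in cluster 6, 65.3 and 84.3 CPM in cluster 7 and 19.3 and 108.2 CPM in clusters 1 to 3. Urod, another enzyme of the pathway, was at 198.6 CPM in cluster 6 and 224.3 CPM in cluster 7. Alas2 was at 5.59 CPM in cluster 6 and 1.15 CPM in clusters 1 to 3, or 0.939 CPM without treated cell 31. Iron genes had a median of 0.34, with 8 of 9 above 0 and 0 past 1. Tfrc, which takes up transferrin iron, had 34.3 CPM in Ctrl against 57.5 CPM in treated cells (0.73), and the iron store Fth1 at 540.3 and 582 CPM (0.11).

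Red cell membrane genes differed in where they were read. Of 17 genes 10 were measured, 10 had a ratio above 0 (52.2% of all measured genes did) and 1 reached 1 (1.16%), with a median of 0.37. That gene was Sptb (beta spectrin), with 2.96 CPM in Ctrl against 9.52 CPM in treated cells (1.41), and with 21.5 and 72.9 CPM in clusters 6 and 7. Ermap, an erythroid membrane protein, was at 91.2 CPM in cluster 6 and 0 in cluster 7, and Gypc and Epb41 were at 212.8 and 135.2 CPM in cluster 6 and 273 and 227.3 CPM in cluster 7, and were read in 75.2% and 70.6% of cells of clusters 1 to 3 as well. Of 7 measured enzymes and chaperones 5 were above 0 (52.2% of all measured genes) and 2 reached 1 (1.16%), Hemgn at 3.51 and 9.79 CPM (1.26) and the carbonic anhydrase Car1 at 2.73 and 7.03 CPM (1.10). Car2, another carbonic anhydrase, was at 94.8 and 156.5 CPM (0.72). Erythropoietin signalling genes had 4 of 7 above 0 and a median of 0.29 over all cells, with the survival gene Bcl2l1 at 34.3 and 45.4 CPM (0.40). Within clusters 6 and 7, 7 of 7 were above 0 (51.1% of measured genes) and 3 reached 1 (9.73%), with a median of 0.71. Within clusters 1 to 3, 3 of 7 were above 0, with a median of -0.021.

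Markers of other cell types had ratios on both sides of 0. All 9 megakaryocyte genes were above 0 and 5 reached 1, with a median of 1.12, against 52.2% and 1.16% of all measured genes. Pf4 had 227.2 CPM in Ctrl against 438 CPM in treated cells (0.94), and Itga2b, an integrin of megakaryocytes and early blood cells, at 45.9 and 101.05 CPM (1.12). Of 8 measured myeloid and pan-blood genes 7 were above 0 and 0 reached 1, with a median of 0.64. All 8 endothelial genes were below 0, with a median of -0.24. Clusters 6 and 7 were 12.7% of treated and 9.21% of Ctrl cells. Within clusters 6 and 7 the medians were 0.54 for megakaryocyte, 0.11 for myeloid and pan-blood and 0.062 for endothelial genes. Within clusters 1 to 3 they were 0.086, -0.18 and -0.099. The part of the cluster shares in the list values over all cells was not tested. Of 8 measured mesenchymal genes 4 were above 0 and 2 reached 1, with a median of 0.012. In block 1, 2 reached 1 (1.64% of measured genes) and 2 had -1 or less (1.55%), with a median of -0.85. In block 2, 8 were above 0 and 6 reached 1 (5.87%), with a median of 1.64.

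Genes whose CPM followed the globins were sought across all cells among 13045 genes read in at least 10% of them. For the summed embryonic globins the highest Spearman's rho was 0.30, for Tspan32, followed by Gata1 at 0.28, which is weak. For the summed adult globins it was 0.44 for Syngr1 and Mt2 and 0.43 for Myb, a factor of blood progenitors. Gata1 itself was followed most closely by Was (0.58) and Itgb2 (0.58), genes of blood cells. For Hbb-y alone rho reached 0.19, with a gene known by its clone name, 9130230N09Rik, and for Hbb-bh1 alone 0.32, with Sptb. All of these are read at higher CPM in clusters 6 and 7 than in clusters 1 to 3.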

How the data were processed

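Single-cell RNA-seq libraries of 483 sorted cells, 239 Ctrl and 244 aDll4-treated, were analysed. They were made by Smart-seq2 with Nextera XT, per the labels' protocols. Reads from these kits are unstranded and have no molecular identifiers. What the authors deposited is a table of raw read counts, as whole numbers. The submitters' processing notes name mm10, GSNAP and HTSeq 0.6.0. They state no annotation release, counting setting or cell filter. Columns of no sample numbered 0.

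Symbols and positions came from GENCODE M21 by Ensembl identifier (45143 matched, 935 did not), and promoters from RefSeq. All cells were kept, and doublets were not called. Groups and clusters are those of the labels. Counts were summed over cells and scaled to CPM. The log2 ratio of CPM + 1, which understates differences of low genes, has no test, because cells could not be grouped by embryo. A gene was measured with a read in at least 5% of cells and called past a ratio of 1 either way. For thinning, 120000 reads were drawn from each cell. Levels between genes were compared only per kilobase of exon.

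The members and lists were chosen with earlier results of these data known. Named genes were the 10 members, up to 4 genes of each list with the highest CPM in clusters 6 and 7, list genes past a ratio of 1, genes by likeness, and Cdh5, Ptprc, Pf4 and Acta2; others are said to be chosen later or serve as comparison genes. Some genes that this rule or the lists would name are not reported here. Alternatives covered pseudocount, scaling, cells, clusters, blocks, runs and depth. Code (Python 3.11.15, numpy 2.4.6, scipy 1.17.1, pandas 2.3.3) was tested on simulated data. R 4.3.3 with edgeR 4.0.16 and DESeq2 1.42.0 gave scaling factors only.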

Additional observations from a re-analysis of the deposited data

How the results depend on the processing

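No paired analysis was possible because no test was made and replicate numbers only name cells. The ratio of treated over Ctrl was 2.80 for embryonic, 1.57 for adult and 2.71 for all globins, and these 3 ratios were above 0 under each of 24 alternatives, which did not include single runs. In run 5 alone they were -0.85, -0.29 and -0.82, and in run 4 alone the embryonic ratio was -0.17. Hbb-bh1 was below 0 in 1 alternative, block 2 alone (-0.40), and Gata1, Klf1 and Epor in 4 each; the cause was not tested. In the order embryonic, adult and all, the ratios were 2.56, 0.83 and 2.499 with 10 CPM added, 2.75, 1.20 and 2.61 as means of the cells' CPM, and 1.44, 2.15 and 1.53 without the 5 cells of highest CPM in each treatment. Without clusters 6 and 7 they were 3.64, 1.82 and 3.62, in clusters 1 to 3 alone 3.72, 1.93 and 3.69, and in clusters 6 and 7 alone 1.23, 0.81 and 1.18. In Y-positive cells of block 1 they were 4.00, 1.76 and 3.81, and in Xist-positive cells of block 2 2.25, 2.80 and 2.33. With 1 run left out at a time they ranged from 1.59 to 3.65, 1.37 to 1.85 and 1.60 to 3.48. The embryonic and summed ratios were 2.01 and 1.94 without the highest cell, 3.62 and 3.45 in block 1, and 1.07 and 1.12 in block 2. The adult ratio was 1.73 with 0.1 CPM added, and the adult and summed ratios 1.39 and 2.67 after thinning. Among alternatives chosen after seeing the data, leaving out treated cell 31 gave 1.58, 1.26 and 1.57. Another such alternative, with both treatments weighted to the cluster shares of all cells, gave 2.57, 1.08 and 2.47. So chosen, too, was leaving out the 3 highest Hbb-y cells of each cluster, which lowered its level in each of the 7 clusters.

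The share of cells with a globin read in clusters 1 to 3 (40%) was 14.2% at 10 reads, 14.9% at 10 CPM and 22.03% after thinning, and in clusters 6 and 7 (83.02%) it was 60.4% at either limit and 66.04%. The embryonic share of beta-like reads in clusters 1 to 3 (99.5%) was 99.4% undivided by length, 99.3% without its highest cell, which is treated cell 31, and 100% as a median over cells; in clusters 6 and 7 (89.9%) it was 88.2% undivided and 89.2% as a median. The alpha-like share in clusters 1 to 3 (92.1%) was 93.4%, 71.7% and 92.8% in the same order. In clusters 6 and 7 (82.6%) it was 85.01% undivided, 44.7% without the highest cell and 0% as a median. Genes past a ratio of 1 either way were 312 (2.05%) of those read in 5% of cells and 654 (1.42%) without a filter; of those read in 10% they were 1.26%, a number lower by over 1.5 times. Low depth limits genes with few reads, such as Hba-a2.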
